A study of Mus musculus with 24 samples.

Results

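The comparison described here sets BV2 cells given lipopolysaccharide (LPS) against BV2 cells given interleukin-10 (IL-10), gene by gene. Its members were taken by label: the 3 LPS cell libraries and the 3 IL-10 cell libraries, 6 of the 24 libraries of the series. BV2 is an immortalised mouse microglial cell line, so all groups share that line and no group holds primary microglia. LPS was given at 100 ng/mL and IL-10 at 50 ng/mL, each for 72 h, and RNA of the cells was sequenced. The 3 control cell libraries, from BV2 cells labelled as controls, are given beside them as background. A further 3 libraries of cells given TGF-β (50 ng/mL) entered only the shared fit: the choice of tested genes, the scaling and the estimate of spread. Extracellular vesicles (EVs) of BV2 cells under the same treatments gave a second set of 3 LPS and 3 IL-10 libraries, used at the end. The labels do not say whether the libraries of a group came from separate cultures. The p-values therefore measure the spread among these libraries, part or all of which may be technical.

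LPS, a cell wall component of Gram-negative bacteria, is bound by CD14 and the TLR4 and MD-2 receptor complex. Adaptor proteins then activate NF-kB, which drives cytokine and chemokine genes, and IRF3, which drives interferon-β and through it the interferon-stimulated genes. IL-10 binds a receptor of the IL10RA and IL10RB chains, signals through JAK1 and STAT3, and is known as the main cytokine that restrains macrophage and microglial activation. STAT3 induces its own inhibitor Socs3 and a set of genes that limit inflammatory transcription. A direct contrast of the agents asks in which genes the cells differ after an inflammatory and an anti-inflammatory signal, whatever either does relative to controls.

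The LPS cell libraries held 42125153, 28653456 and 32767734 counts and the IL-10 cell libraries 36317116, 34779403 and 34907588, over 13290 listed genes. Libraries of 1 group correlated across genes with r = 0.995 to 0.996, and LPS with IL-10 libraries with r = 0.953 to 0.961 (genes are not independent replicates). The 10 highest genes took 12% to 12.3% of the counts in LPS libraries and 19.6% to 20.8% in IL-10 libraries. Microglial and macrophage markers, 16 of 17 listed, summed to 15595 to 16546 CPM (the standard depth-scaled read count, on library sizes scaled by TMM and not corrected for gene length) in LPS libraries and to 16109 to 17426 CPM in IL-10 libraries. Lyz2 alone averaged 8902 CPM in LPS and 7672 CPM in IL-10 libraries, so the sums say little of the other markers. At an edgeR adjusted p below 0.05, 4 of the 16 were higher in LPS and 6 in IL-10, beside 27% and 26.3% of all tested genes. Among them, Cd68 was 2.14-fold higher in IL-10 and Csf1r 2.39-fold higher in LPS. The homeostatic marker P2ry12 was not analysed here, and Cx3cr1, another one, had a single count over the 6 libraries. Neuronal markers reached at most 0.28 CPM, with 2 of 4 listed genes at 0. Summed fibroblast markers were 6.6 to 9.45 CPM in LPS and 0.0595 to 0.19 CPM in IL-10 libraries, from Acta2 and Pdgfrb, with Col3a1 at 0. Neutrophil markers (S100a8, Elane, Camp and Ngp) summed to 6.08 to 15.7 CPM in LPS and 1.52 to 2.56 CPM in IL-10 libraries, and endothelial markers (mainly Flt1 and Vwf) to 102 to 121 CPM and 173 to 198 CPM. The part of these marker differences in the results was not tested.

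LPS and IL-10 cells differed in 53.3% of the tested genes, in similar numbers in both directions. Of 12148 genes tested with edgeR, 3279 (27%) were higher in LPS cells and 3190 (26.3%) higher in IL-10 cells at an adjusted p below 0.05, and 58.3% had an unadjusted p below 0.05. By more than 2-fold, 967 genes (7.96%) were higher in LPS and 874 (7.19%) higher in IL-10, and by more than 4-fold 352 (2.9%) and 233 (1.92%). The 3 libraries of one group lay wholly above the 3 of the other for 59.9% of tested genes, 30.6% with LPS above and 29.4% with IL-10 above. Genes of inflammatory mediators, lipocalin and interferon-induced GTPases stood far on the LPS side, and arginase, coagulation factor XIII, complement C4 and C1q genes far on the IL-10 side. In bulk RNA, a lower level in fewer cells and less RNA in every cell cannot be told apart.

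**Figure D1:**
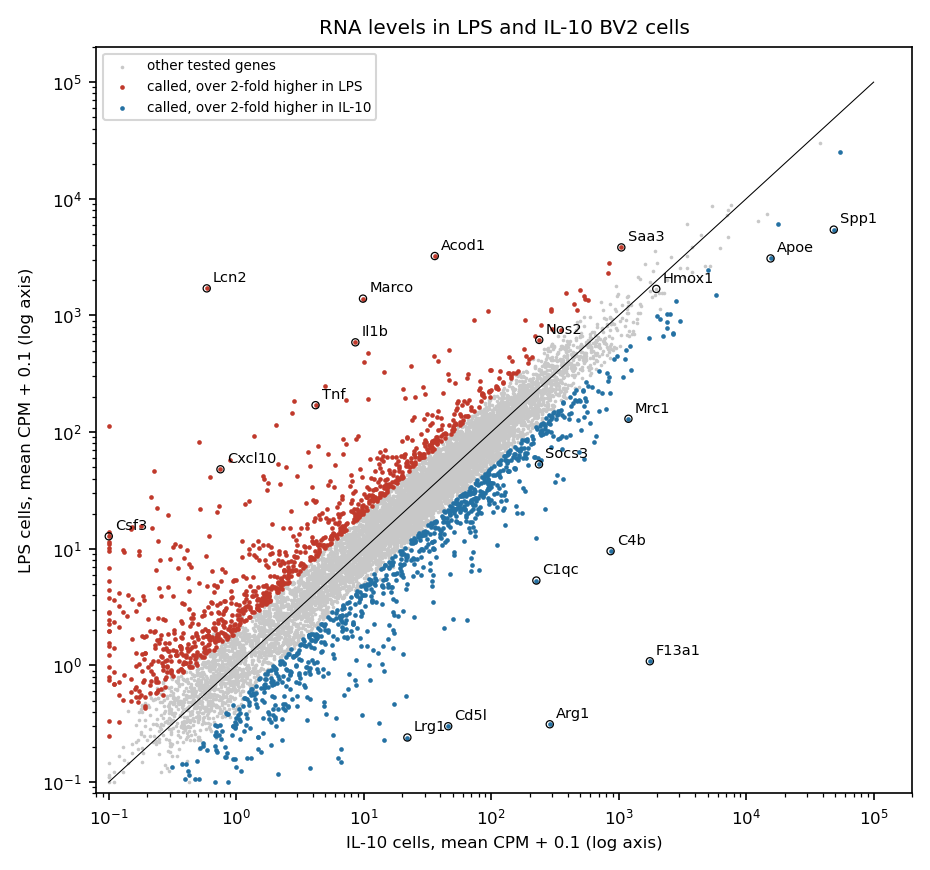
Mean level of each tested gene in IL-10 cells (horizontal) and LPS cells (vertical), in CPM + 0.1 on log axes, n = 3 libraries each. Red and blue points are called genes more than 2-fold higher in LPS (967) or IL-10 (874), the line marks equal levels, and circled genes are named in the text, with Lcn2 and F13a1 farthest from the line.

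The largest difference on the LPS side among the named genes was that of Lcn2, which encodes the iron-siderophore-binding protein lipocalin-2. Lcn2 was at 1478, 1841 and 1799 CPM in LPS libraries and at 0.446, 0.571 and 0.444 CPM in IL-10 libraries. The groups were 3481-fold apart (log2 difference 11.77, SE 0.23, edgeR adjusted p = 3.26e-14), and control libraries held 0, 0.214 and 0 CPM. Marco, a scavenger receptor for bacteria and particles, was 143-fold higher in LPS, at 1387, 1388 and 1403 CPM against 9.52, 9.48 and 10.3 CPM. Its IL-10 libraries were 1.35-fold above the control level of 7.27 CPM ± 1.14 (SD, n = 3) and its LPS libraries 192-fold. Acod1, the enzyme that makes the antimicrobial metabolite itaconate, stood at 3026, 3415 and 3248 CPM against 38.9, 37.2 and 31.9 CPM, an 89.7-fold difference (log2 6.49, SE 0.13). For all 3 genes every LPS library exceeded every IL-10 library.

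Other genes of this group were likewise separated without overlap. Wfdc21, a secreted protein of the whey acidic protein family, was 160-fold higher in LPS, the zinc importer Slc39a4 76.9-fold, and the lipid phosphatase Plpp1 71.8-fold (91.1, 96.2 and 92.9 CPM against 2.02, 0.571 and 1.27 CPM). Bcl2a1d, a member of an anti-apoptotic family of near-identical copies, was 78.4-fold higher, a value that is uncertain because reads may be shared among the copies. Gpr84, a receptor for medium-chain fatty acids, was 235-fold higher in LPS (log2 difference 7.88). That size rests on 11 counts in the IL-10 libraries, at 0, 0.0317 and 0.317 CPM, mostly from the third. Leaving out IL-10 library 1 gave a log2 difference of 7.28, and leaving out the third gave 10.49. For 4 further genes named because IL-10 libraries had no count of them, folds are bounds against 3 counts per library. The potassium channel subunit Kcnf1 was at least 148-fold higher, Csf3, a growth factor of granulocytes, at least 136-fold (7.16, 17.1 and 13.9 CPM in LPS), the membrane protein Susd2 at least 122-fold and the myeloid receptor Cd300e at least 116-fold. No gene met the same rule in the other direction.

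The largest differences named on the IL-10 side were those of F13a1 and Arg1. F13a1, the A subunit of coagulation factor XIII and a macrophage marker, was at 1.55, 0.534 and 0.872 CPM in LPS libraries and at 1967, 1549 and 1751 CPM in IL-10 libraries. That is 1666-fold (log2 difference -10.70, SE 0.29, edgeR adjusted p = 3.07e-10), with controls at 1187, 1332 and 1219 CPM. Arg1, the arginase of alternatively activated macrophages, was at 0.302, 0.134 and 0.203 CPM against 308, 187 and 369 CPM, a 1259-fold difference (log2 -10.30, SE 0.51). Its IL-10 libraries spread more than those of F13a1 but overlapped the control range of 228 to 343 CPM, so that LPS libraries alone stood apart. Sphk1, which makes sphingosine 1-phosphate, had the same arrangement, at 0.129, 0.234 and 0.0291 CPM in LPS, 10.4, 16.9 and 15.3 CPM in IL-10 and 15.9 to 17.9 CPM in controls, 109-fold between the agents. The chemokine receptor Cxcr2 (48.3-fold) and the oxysterol receptor Gpr183 (44.8-fold, or log2 -6.08 in place of -5.49 without LPS library 1) were at control-like levels in IL-10 cells too.

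Another set was high in IL-10 cells and low in controls. Cd5l, a secreted macrophage protein also called AIM, was at 46.4, 45.5 and 45.7 CPM in IL-10 libraries, 0.28, 0.0334 and 0.291 CPM in LPS libraries and 1.13 to 1.46 CPM in controls, 210-fold between the agents (log2 -7.71, SE 0.31). The leucine-rich glycoprotein gene Lrg1 was at 23.5, 22.3 and 19.8 CPM in IL-10 and 0.173, 0.134 and 0.116 CPM in LPS libraries, 148-fold, with controls at 0.1 to 0.244 CPM. The surface antigen genes Ly6c1 (37.7-fold) and Ly6a (27.9-fold) were higher in IL-10 cells as well, and members of the Ly6 family resemble each other, so reads may be shared. Hspb7, a small heat shock protein, was 63.6-fold higher in IL-10 than LPS (log2 -5.99, or -6.63 without LPS library 1), while controls exceeded both. The plot of single libraries shows the separation in each case.

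**Figure D2:**
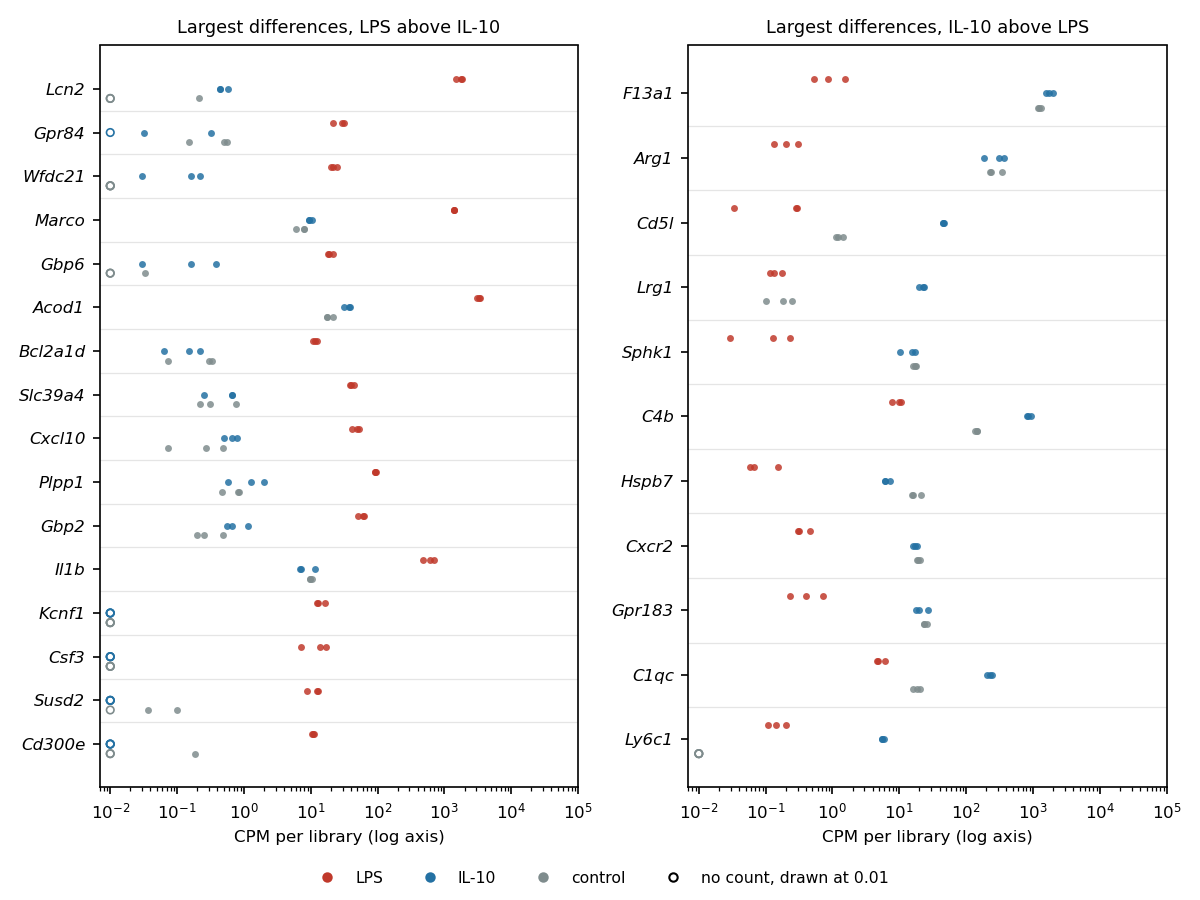
CPM of each library on a log axis for the genes with the largest differences, LPS above IL-10 on the left and IL-10 above LPS on the right, with controls for comparison. Each point is 1 library, open points had no count, and in every gene shown the red LPS points and the blue IL-10 points do not overlap.

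Genes of the NF-kB response were mostly higher in LPS cells. Of 42 tested genes of this list, 34 were higher in LPS (27% of all genes) and 5 in IL-10 (26.3% of all genes). The median log2 difference was 1.45, beside 0.01 over all genes tested. The counts of every later list also stand beside these shares of 27% and 26.3% over all genes. Nfkbia, the inhibitor that NF-kB induces to end its own activity, was at 410, 468 and 460 CPM in LPS and 35.2, 36.7 and 35.1 CPM in IL-10 libraries (12.5-fold, log2 3.64, SE 0.09). Tlr2, the receptor for bacterial lipopeptides, was 10.6-fold higher in LPS, at 394, 422 and 403 CPM against 40.9, 37.4 and 37.3 CPM. Negative regulators were among the genes higher in LPS: Irak3, a relative of the Irak kinases that blocks their signal, by 8.86-fold and the stress-response gene Ier3 by 3.28-fold. The costimulatory ligand Cd80 was 4.28-fold higher in LPS, whereas Cd86, its relative, was 2.76-fold higher in IL-10 and Cd83, a further surface protein of antigen-presenting cells, 3.46-fold higher in IL-10 (Cd86 and Cd83 were chosen after their values were seen). The formyl peptide receptors Fpr1 and Fpr2, which sense bacterial peptides, had no count in IL-10 libraries and were at least 102-fold and at least 56.3-fold higher in LPS, and were also chosen after their values were seen.

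Not every inflammatory gene was confined to LPS cells. Nos2, the inducible nitric oxide synthase, was at 455, 705 and 692 CPM in LPS and at 260, 179 and 276 CPM in IL-10 libraries, with controls at 62.2, 90.3 and 69.3 CPM. The agents differed 2.59-fold (log2 1.37, SE 0.35, edgeR adjusted p = 0.00963), and both lay above every control library. Saa3, an acute-phase protein, was at 3612, 3877 and 3998 CPM against 869, 989 and 1290 CPM, 3.65-fold higher in LPS (log2 1.87, SE 0.11), while controls held 6.66 to 7.75 CPM. Haptoglobin (Hp) was at 285, 336 and 364 CPM in LPS and 15.6, 12.7 and 14.4 CPM in IL-10 libraries, 23-fold apart, with a control mean of 1.32 CPM. In these acute-phase genes IL-10 cells lay between LPS cells and controls. The list of acute-phase and Ly6 surface proteins accordingly split, with 8 of 13 higher in LPS and 5 in IL-10 (median log2 difference 1.52).

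Several secreted inflammatory cytokines were higher in LPS cells. Il1b, the secreted interleukin-1, was at 474, 687 and 603 CPM in LPS and at 11.4, 7.2 and 6.88 CPM in IL-10 libraries, 69-fold (log2 6.11, SE 0.21, edgeR adjusted p = 4.56e-10), and IL-10 libraries overlapped the controls of 9.63 to 10.5 CPM. Tnf was at 141, 183 and 186 CPM against 3.45, 4.66 and 4.15 CPM, 41.6-fold higher in LPS, with controls at 4.43 to 6.45 CPM. Il1a (867, 928 and 922 CPM against 61.3, 76.3 and 80.3 CPM) was 12.5-fold higher and Ebi3, the shared subunit of IL-27 and IL-35, 21.9-fold higher. Il6 was low even in LPS libraries, at 0.733, 0.568 and 0.785 CPM, and had no count in IL-10 or control libraries, a difference of at least 7.46-fold. IL-10's own gene, Il10, was not analysed here.

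Receptor genes lay on both sides. Tnfrsf1b, a receptor for TNF, was 4.07-fold higher in LPS, at 1368, 1677 and 1630 CPM against 365, 391 and 393 CPM. Csf1r, the receptor for the growth factor CSF1, was 2.39-fold higher in LPS and was chosen after its values were seen. Il4ra, the IL-4 receptor chain, was 3.11-fold higher in IL-10 (144, 155 and 161 CPM against 42.1, 55.3 and 50.9 CPM in LPS), where LPS libraries were near the control mean of 40.3 CPM. Il6st, the gp130 chain that many cytokine receptors share, was 4.27-fold higher in IL-10, at 250, 248 and 236 CPM against 55.3, 57.3 and 59.4 CPM. The whole list of cytokines and their receptors, in which Il6st was not counted, had a median log2 difference of 0.12. Of 23 tested, 10 were higher in LPS (43.5%, beside 27% of all genes) and 9 in IL-10 (39.1%, beside 26.3%).

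Chemokine genes were mostly higher in LPS cells. Of 16 tested, 11 were higher in LPS and 4 in IL-10, with a median log2 difference of 2.26. Ccl5, which attracts T cells and monocytes, was at 167, 186 and 216 CPM in LPS and 6.07, 8.02 and 7.45 CPM in IL-10 libraries (26.5-fold, log2 4.73, SE 0.22). Ccl3, a macrophage inflammatory protein, was 11.7-fold higher at 937, 1172 and 1181 CPM against 96.6, 97.1 and 87.3 CPM. The neutrophil attractant Cxcl2 had no count in IL-10 libraries and was at least 109-fold higher in LPS. Chemotactic receptors lay on both sides, 5 of 12 higher in LPS (41.7%) and 6 in IL-10 (50%), beside 27% and 26.3% of all genes. C5ar1, the receptor for complement fragment C5a, was 4.32-fold higher in LPS. Cxcr4 was 9.83-fold higher in IL-10, at 13.3, 14.4 and 14.3 CPM against 2.01, 0.734 and 1.37 CPM.

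Interferon-stimulated genes were higher in LPS cells almost throughout. In the type I interferon list 46 of 53 tested genes were higher in LPS and 3 in IL-10, with a median log2 difference of 1.18. Ifit1, which binds foreign RNA ends, was at 30.9, 44.6 and 42.2 CPM in LPS and at 1.43, 1.17 and 2.09 CPM in IL-10 libraries (25-fold, log2 4.64, SE 0.33). Ifit3 was 21.3-fold higher and Oasl1, an inhibitor of Irf7 translation, 10.8-fold higher at 429, 536 and 549 CPM against 46.8, 46.4 and 47.4 CPM. Usp18, which removes ISG15 from proteins and damps interferon signalling, was 3.58-fold higher. Cxcl10, the chemokine that interferons and NF-kB induce together, was at 41.8, 50 and 51.9 CPM against 0.654, 0.507 and 0.793 CPM, 73-fold (log2 6.19, SE 0.27, edgeR adjusted p = 1.24e-12). In these genes LPS library 1 held the lowest LPS value, and the groups did not overlap.

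The interferon-inducible GTPases, which disrupt vacuoles that hold intracellular microbes, showed the same direction. Of 11 tested, 10 were higher in LPS and none in IL-10, and the median log2 difference was 2.15. Gbp2 was at 50.4, 59.5 and 61.6 CPM in LPS and at 0.565, 1.17 and 0.666 CPM in IL-10 libraries, 71.3-fold higher. Gbp6 was 103-fold higher (log2 6.68, or 7.67 without IL-10 library 3), Gbp3 16.9-fold and Irgm1 2.2-fold. Guanylate-binding and Ifit genes have near-identical relatives, and reads may be shared, which makes the value of any 1 of them uncertain.

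Promoter sequences of 3 genes that were far higher in LPS cells are shown because they carry letters that fit the transcription factors of the TLR4 pathway. They come from RefSeq (GRCm38.p6), run from 250 bases before the annotated start to 50 bases after it, 5′ to 3′ on the gene's strand, and capitals mark the matches. Cxcl10 lies at chr5:92348840-92349139 on the minus strand, Gbp2 at chr3:142620413-142620712 on the plus strand and Marco at chr1:120504975-120505274 on the minus strand.
Cxcl10: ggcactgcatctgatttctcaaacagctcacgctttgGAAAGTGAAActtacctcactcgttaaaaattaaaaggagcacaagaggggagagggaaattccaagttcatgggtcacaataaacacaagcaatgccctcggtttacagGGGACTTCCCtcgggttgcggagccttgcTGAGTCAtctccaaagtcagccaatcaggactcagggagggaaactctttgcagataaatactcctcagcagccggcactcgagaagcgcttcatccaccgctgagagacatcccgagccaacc
Gbp2: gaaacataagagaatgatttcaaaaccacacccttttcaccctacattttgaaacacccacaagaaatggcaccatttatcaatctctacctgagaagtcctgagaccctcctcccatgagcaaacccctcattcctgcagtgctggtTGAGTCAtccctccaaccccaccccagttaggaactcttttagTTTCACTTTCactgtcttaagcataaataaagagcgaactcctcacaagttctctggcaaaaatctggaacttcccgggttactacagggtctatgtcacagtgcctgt
Marco: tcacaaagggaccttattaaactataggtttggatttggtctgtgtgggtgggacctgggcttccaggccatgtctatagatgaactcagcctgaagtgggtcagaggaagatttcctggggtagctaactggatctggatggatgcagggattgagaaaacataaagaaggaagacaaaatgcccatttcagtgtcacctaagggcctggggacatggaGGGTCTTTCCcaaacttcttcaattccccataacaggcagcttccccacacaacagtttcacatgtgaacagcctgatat
The motifs searched, on both strands, were GGGNN followed by TTNCC for NF-kB (kappaB), GAAAN followed by NGAAA for the interferon response element, TGANTCA for AP-1 and TTCNNNGAA for STAT factors (GAS). In Cxcl10 the kappaB match GGGACTTCCC began 103 bases before the start, the interferon match GAAAGTGAAA 213 bases and the AP-1 match TGAGTCA 74 bases before it. Gbp2 held an interferon match on the reverse strand (read here as TTTCACTTTC, 59 bases before the start) and an AP-1 match 102 bases before it. Marco held a kappaB match, GGGTCTTTCC, 30 bases before the start. Among all 32851 promoters of the table, kappaB letters occurred in 4.79%, interferon letters in 3.44%, AP-1 letters in 7.81% and GAS letters in 8.3%. The shown genes were chosen after the matches were seen, and a match in these letters is not a measured binding site. Motif shares were not compared between gene sets, since promoter entries were incomplete. An entry existed for 75.8% of all tested genes. The share was 72.7% among genes more than 4-fold higher in LPS and 65.2% among those more than 4-fold higher in IL-10.

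Genes of LPS sensing showed no common direction. Of 29 tested sensing and adaptor genes 6 were higher in LPS and 9 in IL-10, close to the shares over all genes, and the median log2 difference was -0.07. Tlr4 itself was at 44.1, 32.7 and 41 CPM in LPS and at 64.5, 55.8 and 56.7 CPM in IL-10 libraries, 1.5-fold higher in IL-10 (log2 -0.59, SE 0.16, edgeR adjusted p = 0.00526), where it overlapped the controls of 51.8 to 60.5 CPM. Cd14, the co-receptor that hands LPS to TLR4, went the other way, at 434, 552 and 562 CPM against 174, 182 and 183 CPM (2.87-fold higher in LPS). The adaptor Ticam2 of the interferon branch was 4.01-fold higher in LPS and the kinase Ikbke 9.2-fold, at 185, 203 and 196 CPM against 19.5, 22.5 and 21.4 CPM. Traf6, the ubiquitin ligase downstream of the Irak kinases, was 2.45-fold higher in IL-10 and was chosen after its values were seen.

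Genes of the IL-10 and STAT3 program were mostly higher in IL-10 cells. Of 31 tested, 22 were higher in IL-10 (26.3% of all genes) and 7 in LPS, with a median log2 difference of -0.79. Socs3, the STAT3-induced feedback inhibitor, was at 227, 252 and 232 CPM in IL-10, 46.3, 56.1 and 56.1 CPM in LPS and 20.6, 26.4 and 25.9 CPM in control libraries. IL-10 exceeded LPS 4.49-fold (log2 -2.17, SE 0.11, edgeR adjusted p = 6.72e-12), and LPS libraries too lay above all controls. Sbno2, a transcriptional corepressor that IL-10 induces, was 2.77-fold higher in IL-10, at 358, 389 and 365 CPM against 121, 144 and 135 CPM. Stat3 was 1.73-fold higher in IL-10 (365, 385 and 368 CPM against 204, 224 and 218 CPM), and LPS libraries were at the control mean of 216 CPM. The kinase gene Jak3 was 3.14-fold higher in IL-10. Of the 7 members higher in LPS, Tnip3, an NF-kB inhibitor, was 13.8-fold higher, at 51.1, 51.1 and 52.1 CPM against 4.46, 3.23 and 3.46 CPM. The metal transporter Slc11a1 was 1.81-fold higher in LPS.

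The promoter of Socs3, a gene higher in IL-10, is shown as a description (RefSeq GRCm38.p6, chr11:117969317-117969616, minus strand, 5′ to 3′). The capitals mark a GAS match.
Socs3: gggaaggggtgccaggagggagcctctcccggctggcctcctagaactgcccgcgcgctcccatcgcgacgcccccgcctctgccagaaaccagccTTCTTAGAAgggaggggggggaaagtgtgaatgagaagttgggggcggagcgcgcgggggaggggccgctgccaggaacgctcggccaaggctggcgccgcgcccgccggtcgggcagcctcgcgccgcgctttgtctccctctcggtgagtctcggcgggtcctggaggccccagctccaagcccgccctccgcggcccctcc
The GAS letters TTCTTAGAA began 154 bases before the start, and no kappaB or interferon letters were found in this window. GAS letters occurred in 8.3% of all promoters. Socs3 too was chosen after the matches were seen, and a match is not a measured binding site. Whether these letters bear on the difference between the agents was not tested.

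In the receptor and JAK-STAT machinery, 12 of 26 tested genes were higher in IL-10 (46.2%) and 5 in LPS (19.2%). Over all genes these shares were 26.3% and 27%, and the median log2 difference of the list was -0.23. Il10ra, the ligand-binding chain of the IL-10 receptor, was lower under both agents than in controls: 52.2, 61.3 and 47.8 CPM in LPS, 61.4, 68.4 and 64.8 CPM in IL-10 and 124 to 131 CPM in controls. The 1.21-fold difference between the agents passed the threshold (edgeR adjusted p = 0.0199). It did not pass without IL-10 library 2 (0.0751), LPS library 1 (0.0563) or LPS library 3 (0.118). The feedback inhibitors differed in direction. Socs6 was 3.95-fold higher in IL-10, at 90.2, 104 and 93.3 CPM against 26.6, 21.2 and 24.7 CPM. Socs1, which limits interferon signalling, was 21.9-fold higher in LPS, at 6.95, 6.94 and 8.02 CPM against 0.506, 0.222 and 0.254 CPM (chosen after its values were seen).

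Complement genes lay on both sides. Of 17 tested, 9 were higher in IL-10 (52.9%, beside 26.3% of all genes) and 6 in LPS (35.3%, beside 27%). The median log2 difference was -0.84. C1qc, a chain of the C1q molecule that starts the classical pathway, was at 247, 224 and 207 CPM in IL-10 and 4.7, 4.87 and 6.13 CPM in LPS libraries, 43.3-fold (log2 -5.44, SE 0.13), with controls at 15.8 to 20.7 CPM. C1qb was 7.74-fold higher in IL-10, at 692, 609 and 605 CPM against 67.8, 91.7 and 87 CPM. C1qa was 106-fold higher, at 7.7, 5.83 and 4.95 CPM against 0.0216, 0.134 and 0.0291 CPM (log2 -6.72, or -7.75 without LPS library 2). Both C1qb and C1qa were chosen after their values were seen. C4b, the complement C4 gene, was at 837, 948 and 807 CPM in IL-10 and 9.99, 7.71 and 10.6 CPM in LPS libraries (91.1-fold, log2 -6.51, SE 0.16), and its near-identical copy makes the value uncertain. C3, on which all pathways converge, went the other way, at 1100, 1196 and 1119 CPM in LPS and 309, 290 and 277 CPM in IL-10 libraries (3.9-fold), and both lay above controls of 131 to 143 CPM.

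A regulator and a receptor of complement were among the genes higher in IL-10. Clusterin (Clu), which restrains the terminal pathway, was 3.63-fold higher in IL-10, at 1055, 1083 and 1090 CPM against 263, 305 and 320 CPM. Itgax, the alpha chain of complement receptor 4, was 5.07-fold higher in IL-10 (778, 822 and 780 CPM against 152, 156 and 162 CPM), at the level of controls (mean 840 CPM).

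Scavenger and phagocytic receptors, Marco aside, were mostly higher in IL-10 cells, 17 of 26 tested, with 3 higher in LPS (median log2 difference -0.66). The median of the list against control was -0.39 in LPS and 0.22 in IL-10. Mrc1, the mannose receptor, was at 1258, 1193 and 1128 CPM in IL-10 and 135, 130 and 124 CPM in LPS libraries, 9.21-fold (log2 -3.20, SE 0.08), with controls between at 614 to 720 CPM. Mertk, a receptor tyrosine kinase that clears dying cells, was 5.84-fold higher in IL-10, at 74.4, 76.6 and 72.9 CPM against 13.5, 12 and 12.8 CPM. Gas6, its ligand, was 3.2-fold higher, and Trem2, the lipid-sensing receptor of microglia, 2.55-fold higher. Between IL-10 and control, Trem2 did not pass the threshold (1.11-fold, edgeR adjusted p = 0.162). In each of these genes the IL-10 libraries lay within a narrow range and far from the LPS libraries.

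Lists that describe macrophage and microglial states leaned to IL-10 cells. Of 15 tested genes of alternative activation, to which Arg1 and F13a1 belong, 10 were higher in IL-10 and 2 in LPS, with a median log2 difference of -1.56. Homeostatic microglial genes were higher in IL-10 in 16 of 26 cases and in LPS in 4 (median -0.96). Against control, the median log2 difference of the alternative activation list was -0.96 in LPS and 0.16 in IL-10. For the homeostatic list it was -0.88 in LPS and 0.06 in IL-10. The ectonucleotidase Entpd1 was 2.97-fold higher in IL-10 and the AP-1 subunit Jun 2.61-fold. Both were higher still in controls, with means of 145 and 313 CPM beside 96.3 and 253 CPM in IL-10. Tmem119, a microglial surface protein, went against its list, at 20.9, 27.4 and 28.7 CPM in LPS and 10.9, 11.8 and 10.4 CPM in IL-10 libraries (2.33-fold higher in LPS, edgeR adjusted p = 2.81e-07).

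The list of disease-associated microglia, named for a state described around amyloid plaques, held 21 of 33 tested genes higher in IL-10 and 4 in LPS (median log2 difference -0.91). Its median against control was -0.61 in LPS and 0.19 in IL-10 on the log2 scale. Spp1, which encodes the secreted protein osteopontin, was at 42676, 50497 and 52895 CPM in IL-10, 5636, 5148 and 5532 CPM in LPS and 10530 to 10960 CPM in control libraries. The agents differed 8.95-fold (log2 -3.16, SE 0.09), with LPS below and IL-10 above every control. Apoe, the lipid carrier, was 5.05-fold higher in IL-10 (14621, 16562 and 15434 CPM against 2958, 3124 and 3157 CPM in LPS), where it overlapped the controls of 15117 to 15728 CPM. Galectin-3 (Lgals3), a sensor of damaged lysosomes, was 3.87-fold higher in IL-10, the fatty acid carrier Fabp5 3.35-fold and the cathepsin Ctsb 2.93-fold. Gpnmb, a lysosomal membrane glycoprotein chosen after its values were seen, was 2.17-fold higher in IL-10, at 52552, 54973 and 54753 CPM against 23703, 24712 and 26497 CPM. The 10 highest genes took a larger share of counts in IL-10 libraries, as given above, and the part of that share in these differences was not tested.

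Lysosomal genes were higher in IL-10 cells in 35 of 45 tested cases and in LPS in 1, with a median log2 difference of -0.59. Their median against control was -0.41 in LPS and 0.15 in IL-10. The proton pump subunit Atp6v0d2 was at 212, 229 and 229 CPM in IL-10 and 14.7, 10.1 and 12 CPM in LPS libraries (18.1-fold, log2 -4.18, SE 0.13). Atp6v0a1, another subunit, was 3.16-fold higher in IL-10, at a mean of 410 CPM beside 428 CPM in controls. The proteases that cut antigens and the invariant chain in lysosomes were among them: Ctss was 3.39-fold higher, at 3048, 3004 and 3055 CPM against 893, 885 and 906 CPM, and Lgmn 3.8-fold higher, at 2596, 2711 and 2693 CPM against 700, 701 and 703 CPM. The thiol reductase Ifi30 was 1.72-fold higher in IL-10. MHC class II presentation genes as a list were higher in IL-10 in 5 of 10 cases (50%) and in LPS in 2 (20%, median -0.20). In MHC class I presentation, 12 of 22 were higher in LPS (54.5%) and 6 in IL-10 (27.3%, median 0.22). Over all genes the shares were 27% in LPS and 26.3% in IL-10. The proteasome activator Psme2 was 2.35-fold and the immunoproteasome subunit Psmb10 1.71-fold higher in LPS. H2-T22 was 1.79-fold higher in LPS and H2-T23 1.9-fold higher in IL-10, but MHC class I genes are so similar that reads may be shared.

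**Figure D3:**
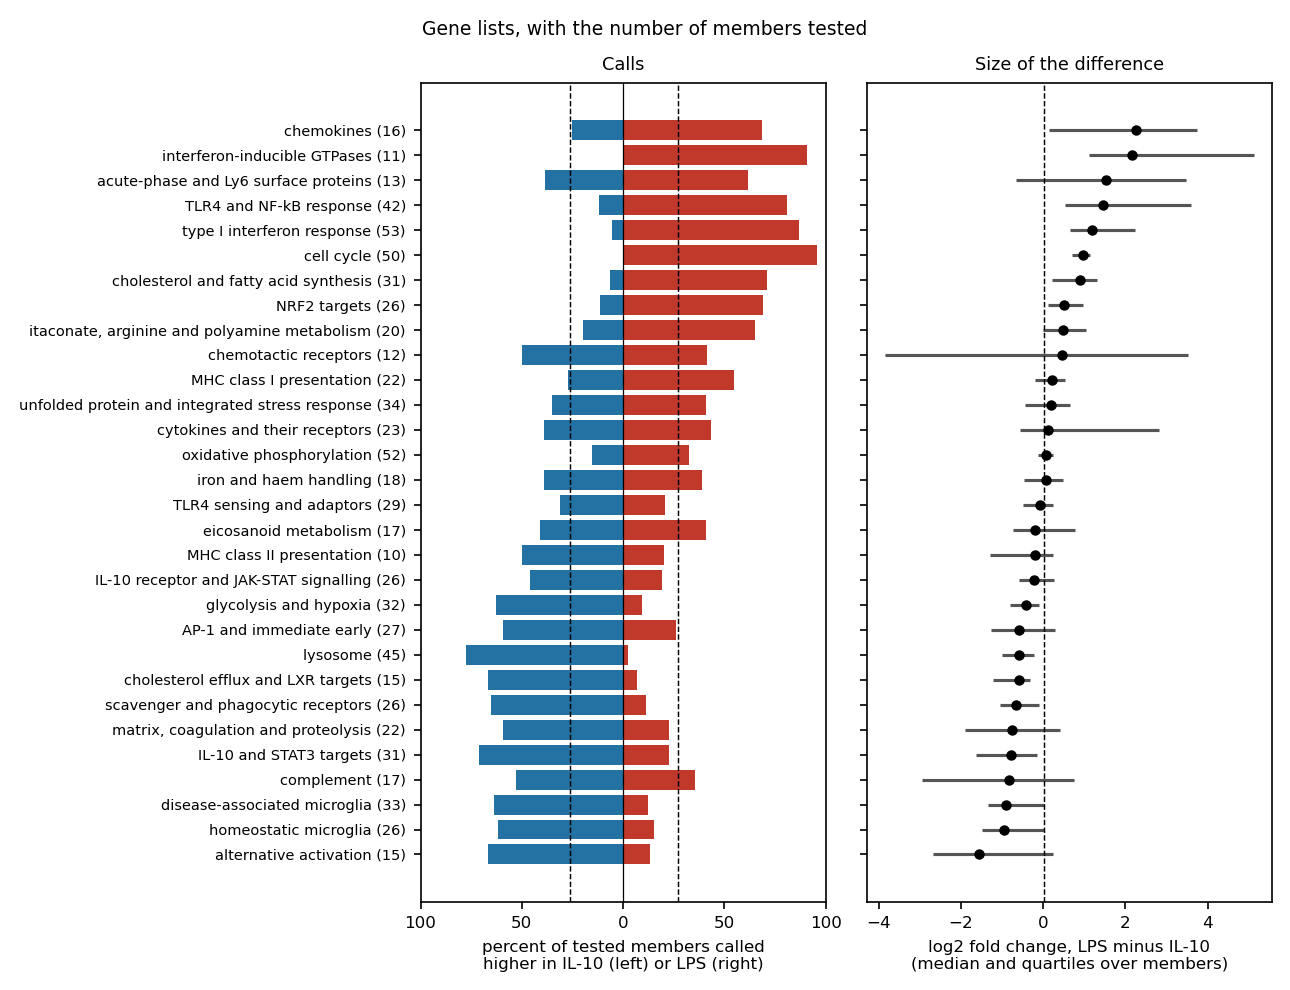
Left, percent of the tested members of each gene list called higher in IL-10 (blue, leftward) or in LPS (red, rightward), with dashed lines at the shares over all genes (26.3% and 27%). Right, median and quartiles over members of the log2 fold change LPS minus IL-10, from 2.26 in chemokines to -1.56 in alternative activation, with a dashed line at the median of all genes (0.01), and numbers in parentheses are members tested.

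Lipid genes split between making and exporting cholesterol. Of 31 tested genes of cholesterol and fatty acid synthesis 22 were higher in LPS and 2 in IL-10 (median log2 difference 0.90). Insig1, a sterol-regulated brake on SREBP that is itself an SREBP target, was at 152, 127 and 126 CPM in LPS and 27.6, 21.6 and 25.2 CPM in IL-10 libraries, 5.45-fold. The synthesis enzymes Fdft1 (3.62-fold), Mvd (3.01-fold) and Lss (2.82-fold) were higher in LPS too. Genes of cholesterol efflux and targets of the sterol-sensing receptor LXR were higher in IL-10 in 10 of 15 cases and in LPS in 1 (median -0.59). Their median against control was -0.64 in LPS and 0.02 in IL-10. The exporter Abcg1 was 2.35-fold higher in IL-10, at 269, 288 and 279 CPM against 115, 127 and 114 CPM. Mylip, which degrades the LDL receptor, was 2.3-fold and the lysosomal cholesterol carrier Npc2 1.59-fold higher in IL-10.

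The branches of arginine metabolism differed in direction. The list of itaconate, arginine and polyamine metabolism had 13 of 20 tested genes higher in LPS and 4 in IL-10 (median log2 difference 0.49). Arginase Arg1 was higher in IL-10 and nitric oxide synthase Nos2 in LPS, as given above. Ass1, which regenerates arginine for nitric oxide synthesis, was 3.32-fold higher in LPS, at 97, 103 and 111 CPM against 32.1, 29.9 and 31.8 CPM. Odc1, the first enzyme of polyamine synthesis, was 2.24-fold higher in LPS, and Sat1, which starts polyamine breakdown, 2.61-fold higher in IL-10.

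Genes of the oxidant response that NRF2 controls were higher in LPS in 18 of 26 cases and in IL-10 in 3, with a median log2 difference of 0.51. Slc7a11, which imports cystine for glutathione synthesis, was at 261, 227 and 240 CPM in LPS and 29.4, 28.6 and 29.2 CPM in IL-10 libraries (8.34-fold, log2 3.06, SE 0.15). Glutathione reductase (Gsr) was 3.19-fold higher, and the NADPH-producing enzymes G6pdx and Pgd 2.34-fold and 1.98-fold. Hmox1, the haem-degrading enzyme that NRF2 and IL-10 both induce, hardly differed, at 1541, 1741 and 1782 CPM in LPS and 1976, 1847 and 2095 CPM in IL-10 libraries. Its 1.17-fold difference passed the threshold (edgeR adjusted p = 0.0119) but not without IL-10 library 3 (0.0656). Iron and haem genes went both ways, 7 of 18 (38.9%) in each direction, beside 27% and 26.3% of all genes (median 0.06). The transferrin receptor Tfrc, chosen after its values were seen, was 4.9-fold higher in LPS, and the iron exporter Slc40a1 2.09-fold and the ferritin light chain Ftl1 1.9-fold higher in IL-10.

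Glycolysis and hypoxia genes were higher in IL-10 in 20 of 32 cases and in LPS in 3 (median log2 difference -0.41). The members named here are targets of hypoxia-inducible factor: Ndrg1 was at 365, 361 and 367 CPM in IL-10 and 36.8, 41.5 and 40.4 CPM in LPS libraries (9.22-fold), the mitophagy receptor Bnip3 was 5.87-fold and the prolyl hydroxylase Egln3 4.46-fold higher in IL-10. Ankrd37 was 17.7-fold higher in IL-10, at 13.9, 14.3 and 14.7 CPM against 0.776, 0.701 and 0.93 CPM. In Ndrg1, Bnip3, Egln3 and Ankrd37 the control means of 413, 131, 123 and 23.3 CPM were close to or above IL-10. Oxidative phosphorylation differed little, with a median of 0.08. Of 52 tested, 17 were higher in LPS (32.7%, beside 27% of all genes) and 8 in IL-10 (15.4%, beside 26.3%). The electron carrier Cycs was 2.2-fold and the ATP synthase subunits Atp5g1 and Atp5g3 1.69-fold and 1.5-fold higher in LPS, while Ndufa1 of complex I was 1.41-fold higher in IL-10.

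Cell cycle genes were the list with the largest share of members called in 1 direction, 96%. Of 50 tested, 48 were higher in LPS and none in IL-10, with a median log2 difference of 0.96 and quartiles of 0.69 and 1.14. Ccnd1, the G1 cyclin, was 2.89-fold higher, at 70.7, 74.1 and 76.1 CPM against 32.9, 21.3 and 22 CPM. The replication factor Mcm10 was 2.74-fold, the histone chaperone subunit Chaf1a 2.38-fold and the thymidylate synthase Tyms 3.58-fold higher (36.2, 43.4 and 42.3 CPM against 12.2, 10.2 and 11.7 CPM). The median of this list against control was 1.03 in LPS and 0.04 in IL-10 on the log2 scale.

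The remaining lists were mixed or leaned to IL-10. Among AP-1 and immediate early genes 16 of 27 were higher in IL-10 and 7 in LPS (median log2 difference -0.58), with Ier5 2.01-fold and the stress factor Atf3 2.07-fold higher in IL-10. Unfolded protein and integrated stress response genes were higher in LPS in 14 (41.2%) and in IL-10 in 12 (35.3%) of 34 cases (median 0.18). Over all genes these shares were 27% and 26.3%. Herpud1 was 2.24-fold higher in LPS and Edem1 2.51-fold higher in IL-10, both of them in the disposal of misfolded proteins. In eicosanoid metabolism 7 of 17 (41.2%) were higher in each direction (median -0.19). Ptges, which makes prostaglandin E2, was 7.23-fold, the lipoprotein-associated phospholipase Pla2g7 5.59-fold and the fatty acid hydroxylase Cyp4f18 6.8-fold higher in LPS. For Cyp4f18 the LPS mean of 15.1 CPM was near the control mean of 14.5 CPM, and the IL-10 mean was 2.21 CPM. The lysosomal phospholipase Pla2g15 was 7.21-fold higher in IL-10, at 463, 504 and 484 CPM against 62.6, 64.3 and 74.3 CPM. Of matrix, coagulation and proteolysis genes 13 of 22 were higher in IL-10 and 5 in LPS (median -0.77). Mmp9, a gelatinase, was 17.6-fold higher in LPS, at 66.4, 80.3 and 80.3 CPM against 4.67, 4.98 and 3.23 CPM, and the urokinase gene Plau 12.5-fold higher in IL-10, at 79, 88.5 and 75 CPM against 5.48, 6.54 and 7.5 CPM.

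Beside the control libraries, which both contrasts share, 52% of tested genes were called between LPS and control and 18.3% between IL-10 and control. Of the genes on opposite sides of control, some with the largest displacements are named by their levels, as a description. Others, such as Spp1 above, lay on opposite sides too. C4b, Cd5l, C1qc, Plau and Bambi, a decoy receptor of the TGF-β family, were below control in LPS and above it in IL-10. C4b was 15-fold below control in LPS (log2 -3.90) and 6.09-fold above it in IL-10 (log2 2.61), with controls at 147, 136 and 143 CPM. For C1qc these values were 3.53-fold below and 12.3-fold above, for Plau 4.13-fold below and 3.02-fold above, and for Bambi 7.45-fold below and 2.79-fold above. Bambi stood at 2.65, 2.07 and 2.47 CPM in LPS, 46.7, 55.7 and 48.7 CPM in IL-10 and 16.3, 19 and 18.8 CPM in control libraries.

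In the other direction 6 genes were named, with LPS above and IL-10 below control. Vnn3, a pantetheinase gene, was at 233, 265 and 251 CPM in LPS, 4.73, 5.07 and 4.85 CPM in IL-10 and 12.8, 19.7 and 18.5 CPM in control libraries. Adora2a, an adenosine receptor, was 11.3-fold above control in LPS and 4.09-fold below it in IL-10 (46.4-fold between the agents, log2 5.54, or 6.34 without IL-10 library 3). Its relative Adora2b was above control under both agents, at 12.2, 12.1 and 10.9 CPM in LPS and 11.7, 12.8 and 14.9 CPM in IL-10 against 4 to 5.51 CPM. Arhgap22 was 27.9-fold higher in LPS than IL-10 (log2 4.80, or 5.70 without IL-10 library 2), and Pilrb2, of a family of similar receptors, 58.5-fold. The IL-7 receptor gene Il7r and the globin gene Hbq1a were low throughout, at no more than 2.2 and 1.8 CPM. Neither passed the threshold between IL-10 and control (edgeR adjusted p = 0.216 and 0.117).

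Some genes were displaced from control to a like extent by both agents. The rule required a 95% interval of the LPS and IL-10 difference within 1.5-fold. Cd38, an enzyme that consumes NAD, was at 44.3, 35.8 and 39.2 CPM in LPS, 42.2, 39.8 and 43.3 CPM in IL-10 and 7.9, 6.57 and 6.85 CPM in control libraries, and the interval of its log2 difference between the agents ran from -0.29 to 0.16. Hmox1, the stress gene Gadd45b, the MHC gene H2-Q7, the glycosyltransferase Gcnt2 and Adora2b were the others named above control. Those named below control under both agents were Tspan10, Zan, the clotting factor gene Vwf, the elastase Mmp12, Enc1 and Cyb5rl. Vwf was at 39.2, 45.1 and 41.3 CPM in LPS and 49.9, 55.1 and 49.4 CPM in IL-10 against 121 to 142 CPM in controls, and its 1.23-fold difference between the agents still passed the threshold (edgeR adjusted p = 0.0087). Mmp12 did not pass (edgeR adjusted p = 0.261), but did without LPS library 1 (0.0266) and with limma-voom (adjusted p = 0.0309). Cyb5rl did not pass (edgeR adjusted p = 0.192), but did without LPS library 3 (0.0419).

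**Figure D4:**
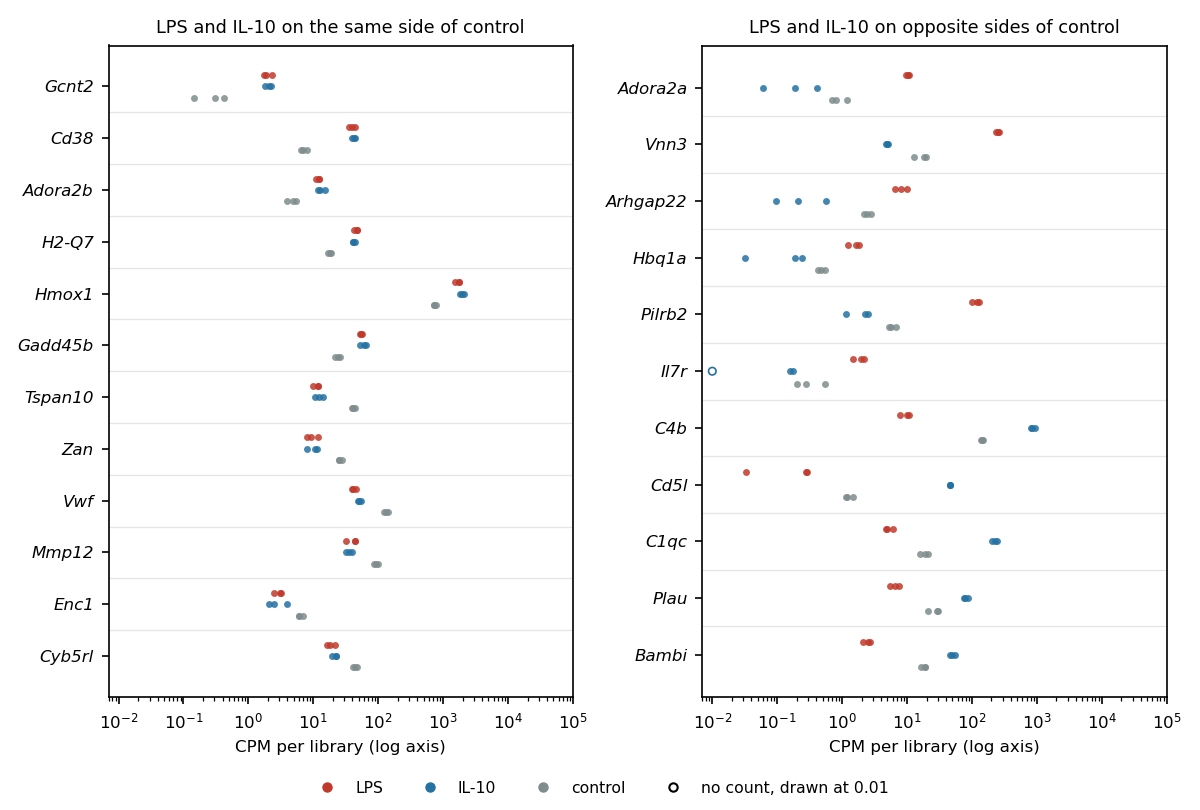
CPM of each library on a log axis for the named genes that LPS and IL-10 cells displaced to the same side of control (left) and to opposite sides (right). Points are libraries and open points had no count: on the left red and blue points lie together away from the grey controls, on the right the grey controls lie between them.

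The same contrast in EVs gave far less certain values. EV libraries held 3019338 to 6278724 counts after LPS and 4629009 to 8617231 after IL-10, and 0.49% to 4.42% of listed genes were at 0 in LPS EVs against 22.02% to 37.02% in IL-10 EVs. Of 12701 genes tested in EVs edgeR called 0 (0%), while 2453 (19.3%) had an unadjusted p below 0.05. DESeq2 called 858 higher in LPS and 161 higher in IL-10, and edgeR on the 6 libraries alone 1630 and 181. All LPS EV libraries lay above all IL-10 EV libraries for 27.8% of tested genes and below them for 6.05%.

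Of the 16 genes with the largest excess in LPS cells, all LPS EV libraries lay above all IL-10 EV libraries for 11 and in no case below. Cxcl10 was at 662, 353 and 502 CPM in LPS EVs and 1.29, 16.7 and 0 CPM in IL-10 EVs (85.5-fold, edgeR adjusted p = 0.0912). Il1b was at 1038, 628 and 613 CPM against 54.2, 1.91 and 118 CPM (edgeR adjusted p = 0.277). Lcn2 and Marco, so far apart in cells, overlapped in EVs: Lcn2 was at 313, 229 and 335 CPM in LPS EVs and 49.4, 0 and 432 CPM in IL-10 EVs, and control EVs held 45.1 to 348 CPM. IL-10 EV library 3 held the highest IL-10 value for Lcn2, Marco, Acod1 and Saa3. Of 11 genes named for a large excess in IL-10 cells, Arg1 (103, 74.2 and 188 CPM against 56.2, 54.6 and 27.2 CPM) and Cxcr2 (191, 211 and 114 CPM against 72.5, 33.2 and 59.3 CPM) had all IL-10 EV libraries above all LPS EV libraries, and none had the reverse. Socs3 overlapped, at 74.8, 98.3 and 19 CPM in IL-10 EVs and 8, 27.4 and 28.1 CPM in LPS EVs.

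**Figure D5:**
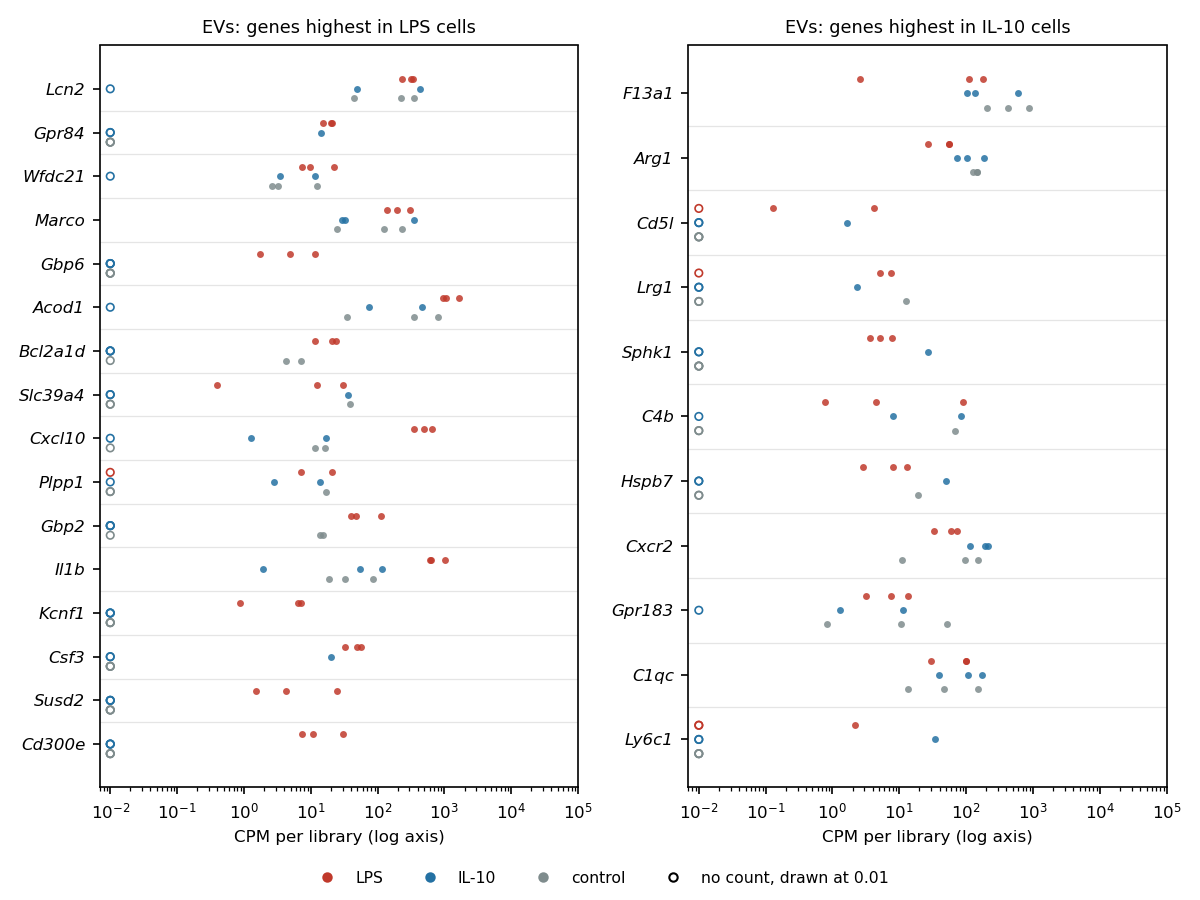
CPM of each EV library on a log axis for the genes with the largest differences in cells, those higher in LPS cells on the left and in IL-10 cells on the right. Points are libraries and open points had no count: LPS EVs lie above IL-10 EVs for 11 of 16 genes on the left, and most genes on the right overlap.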

How the data were processed

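The deposited tables hold raw counts per gene, 1 table per treatment and compartment, as whole numbers. They were joined by row order, since all list the same gene symbols in the same order. Per the labels' protocols, total RNA was amplified with the SMART-Seq v4 kit and tagged with Nextera XT, kits that do not mark strand, so antisense and overlapping genes cannot be told apart. The submitters' processing notes name DESeq2. Which aligner, counter and build were used is not given in the sources used here. Every listed gene has at least 240 counts summed over the 24 libraries, so rarer genes are not analysed here. No column was left unmapped. No library pair of a group looked like a repeat (chi-square per degree of freedom 7.55 to 26.86).

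The 12 cell libraries were fitted together with edgeR 4.0.16 (TMM, filterByExpr, robust quasi-likelihood test) in R 4.3.3, and LPS was contrasted with IL-10, with Benjamini-Hochberg adjustment over all genes tested and a threshold of 0.05. The 12 EV libraries were fitted likewise. The SE is the log2 difference over the square root of F. A group without a count got a floor of 3 counts per library, for counting error only. In simulated data with 200 changed genes the procedure recovered 79% of 2-fold and 94% of 4-fold changes in cells (12147 genes simulated) and 0% of both in EVs (12701 genes). The simulated spread followed the trend over genes, and far fewer genes were changed than the 53.3% called in cells. The recovered shares therefore hold for the simulated setting only.

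The groups, gene lists and naming rule were chosen with earlier results of these data known. Named were the 12 largest differences each way with at least 50 counts on average in the higher and 10 in all in the lower group, 4 genes without a count in the other group, up to 4 members per list by adjusted p, 25 fixed genes, and 6 genes each way on the same side or on opposite sides of control. The MHC, complement, cytokine and other lists are described by counts and medians, with no set test. Promoter entries existed for 29 of 44 named genes searched. Results for some genes chosen in this way are left out here, with no others put in their place. Tried as alternatives were DESeq2 1.42.0, RLE scaling, limma-voom (limma 3.58.1, cells only), 2 filters, the 6 libraries alone, a column-number block and leaving out each library. Python 3.11.15 ran the summaries.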

Additional observations from a re-analysis of the deposited data

How the results depend on the processing

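In cells the counts higher in LPS and in IL-10 stayed within 1.5 times of 3279 and 3190 in every alternative run, from 2873 to 3099 and from 2849 to 3018 when 1 library was left out and up to 3581 and 3417 with limma-voom. Whether libraries with the same column number belong together is not given in the labels. Their deviations hardly correlated (0.04, 0.05 and 0 in cells, and -0.02, -0.02 and 0.02 in EVs), which cannot show whether they were paired. A replicate block on the column number gave 3253 and 3271 genes in cells and 0 and 0 in EVs. In EVs, DESeq2 moved the counts from 0 and 0 to 858 and 161 and the fit of the 6 libraries alone to 1630 and 181, the cause was not tested, and the counts stayed at 0 in the other EV alternatives, including leaving out each library. Of 2051 pairs of 158 named genes and cell alternatives, 2044 kept direction and side of the threshold, 4 lost and 3 gained the call, and none reversed. The 4 genes concerned were Il10ra, Hmox1, Mmp12 and Cyb5rl, and the alternatives other than a left-out library changed the call only of Mmp12 (edgeR adjusted p = 0.261, limma-voom adjusted p = 0.0309). No majority direction of the 30 gene lists turned.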
